A study of Mus musculus with 6 samples.

Results

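The colony-stimulating factors and their receptors were examined in cultures of primary mouse fibroblasts kept with or without the chemokine CXCL3. The set holds 8 genes of the 51912 in the table, chosen by name: the ligand genes Csf1, Il34, Csf2 and Csf3 and the receptor genes Csf1r, Csf2ra, Csf2rb and Csf3r. All 8 were matched by Ensembl identifier and gene symbol. Levels are in TPM, the share of transcripts scaled to a fixed library total and to transcript length. All 8 were kept for testing, as were 13139 genes in all, since 3 or more of the 6 libraries reached 1 TPM. Il34 passed it narrowly, with 3 libraries at 1 TPM or more, of which 1 was a CXCL3 library and 2 were controls.

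Colony-stimulating factors are secreted proteins named for the blood cell colonies they support in culture. CSF1 (M-CSF) and IL-34 both bind CSF1R, a receptor tyrosine kinase on which most tissue macrophages depend for growth and survival, and fibroblasts are a known source of CSF1. CSF2 (GM-CSF) binds a receptor made of the alpha chain CSF2RA and the beta chain CSF2RB, which signals through the kinase JAK2 and the factor STAT5. CSF3 (G-CSF) binds CSF3R, the receptor that drives the formation of neutrophils, and inflamed stromal cells are known to make it.

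CXCL3 is a secreted chemokine that acts through the receptor CXCR2. The tested cells were primary fibroblasts treated with CXCL3, and the controls were primary fibroblasts labelled only as control. The series text gives 48 h for both groups, each group had 3 libraries, and the labels give an age of 6 weeks for both groups. The labels give no strain, no organ of origin, no dose and no genotype, and do not say whether the replicates were separate cultures or animals, so the p-values measure the spread between these libraries, which may be technical. The question was how fibroblasts respond to CXCL3.

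The libraries are called CXCL3 1, 2 and 3 and control 1, 2 and 3. The table gives TPM, which keeps no depth, so no counting error is attached to a value. Genes varied less among the CXCL3 libraries than among the controls, with a median SD of 0.086 against 0.20 on the log2(TPM + 1) scale. Controls 2 and 3 stood apart from the other 4 libraries. Over 13114 genes, each gene's offset in a library from its 6-library mean was ranked against the length of its longest transcript. Spearman's rho was 0.40, 0.37 and 0.20 in CXCL3 1, 2 and 3, against 0.45, -0.50 and -0.48 in controls 1, 2 and 3. With limma on log2(TPM + 1), 0.16% of the 13139 genes passed an adjusted p of 0.05.

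The labelled cell type was checked against marker lists. Of 12 fibroblast markers 10 were kept, with a summed level of 5660 to 6020 TPM in CXCL3 libraries and 5059 to 7240 TPM in controls, while Lum and Fap stayed under 1 TPM in every library. Of the 10, 1 passed: Col3a1, a fibrillar collagen gene, was lower at 195.5 ± 7.91 TPM with CXCL3, against 407.5 ± 56.5 TPM in controls (log2 fold change -1.05; limma, adjusted p = 0.0293). Postn (log2 fold change -0.58; limma, adjusted p = 0.117) and Dcn (-0.15, adjusted p = 0.422) lay below all controls in every CXCL3 library without passing. Vim (0.12, adjusted p = 0.510) lay above all controls, also without passing. With Col3a1, 3 of the 10 lay below all controls and 1 above, where 9.31% and 7.92% of all genes did. The part of these differences in the levels of the colony-stimulating factors was not tested. Macrophage markers were abundant as well: 15 of 16 were kept, and the list summed to 15208 to 15309 TPM in CXCL3 libraries and 15510 to 18507 TPM in controls. Most of that sum was Lyz2, the lysozyme of macrophages. The neutrophil list, which includes Csf3r, was mostly absent, with 7 of 12 markers under 1 TPM in every library, among them Ly6g and Elane, and Ngp and Retnlg listed at 0 throughout. S100a8, which other cells can also make, held most of its summed level of 636 to 688 TPM in CXCL3 libraries and 661 to 755 TPM in controls. Cxcr2, the gene of the CXCL3 receptor and also in this list, was at 0.12 TPM at most in any library. In each of the lists for mast cells, T and NK cells, B cells and dendritic cells, at most 1 marker was kept and the sum stayed below 3 TPM. The cultures are therefore described as mixed, and in such bulk samples fewer cells of a type and less RNA per cell cannot be told apart.

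Short stretches of the messages of Csf2 and Csf3 are shown first because they bear on how these ligand transcripts are known to be handled. Csf2 and Csf3 messages are textbook carriers of AU-rich elements, repeats of AUUUA in the 3′ untranslated region that mark a message for rapid decay through proteins such as ZFP36. In the longest coding transcript (GENCODE M21), Csf2 held 9 copies of ATTTA in a 3′ region of 317 bases, and Csf3 held 6 in 669 bases. At least as many copies were present in 8.44% of 20969 coding genes for Csf2 and in 16.7% for Csf3. Csf1 held 4 in 2111 bases, Csf1r held 3 in 1669 bases and Il34 held 1 in 605 bases, while Csf2ra, Csf2rb and Csf3r held 0. The densest stretch of 30 bases of each of the first pair follows, 5′ to 3′, with ATTTA copies in capitals.
Csf2: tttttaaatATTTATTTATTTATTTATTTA
Csf3: gatagtttATTTAtctctATTTAatATTTA

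Of the 8 members, 4 had a promoter window in RefSeq (build GRCm38.p6), which runs from 250 bases before to 50 bases after the start site. The windows of Csf1 and Csf2ra are shown because both genes had the order of libraries given below, which 22.2% of all genes had. Their Pearson r over the 6 libraries was 0.868. That of Csf3r is shown because it belongs to the receptor of the ligand with the clearest difference. Capitals mark every match to the motifs searched on both strands: the PU.1 core GAGGAA, the kappaB consensus, TTNNGNAA for C/EBP factors, TGANTCA for AP-1, and TATAAA. In the windows shown, PU.1 and C/EBP matches did not overlap each other.
Csf1, chr3:107760420-107760719, minus strand: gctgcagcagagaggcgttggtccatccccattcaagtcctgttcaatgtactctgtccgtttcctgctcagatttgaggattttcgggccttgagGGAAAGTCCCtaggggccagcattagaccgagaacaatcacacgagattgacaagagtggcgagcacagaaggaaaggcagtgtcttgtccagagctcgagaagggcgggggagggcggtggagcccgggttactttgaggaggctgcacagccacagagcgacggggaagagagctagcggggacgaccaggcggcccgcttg
Csf2ra, chr19:61228369-61228668, minus strand: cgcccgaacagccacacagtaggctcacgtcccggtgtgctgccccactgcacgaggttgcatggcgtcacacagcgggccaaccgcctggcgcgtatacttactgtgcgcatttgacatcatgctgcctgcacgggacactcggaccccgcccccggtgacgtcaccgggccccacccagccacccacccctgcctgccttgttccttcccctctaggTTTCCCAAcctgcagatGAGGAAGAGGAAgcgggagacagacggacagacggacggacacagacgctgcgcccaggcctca
Csf3r, chr4:126024409-126024708, plus strand: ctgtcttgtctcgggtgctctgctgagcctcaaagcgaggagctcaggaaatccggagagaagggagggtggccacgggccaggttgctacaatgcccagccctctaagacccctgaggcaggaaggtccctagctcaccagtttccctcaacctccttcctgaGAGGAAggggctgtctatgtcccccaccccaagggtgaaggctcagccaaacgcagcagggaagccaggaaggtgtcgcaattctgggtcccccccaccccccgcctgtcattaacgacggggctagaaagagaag
The Csf1 window held 1 kappaB match, which 4.51% of all 32851 promoter windows hold, and 0 PU.1 matches. The Csf2ra window held 2 adjacent PU.1 matches and 1 C/EBP match, and the Csf3r window held 1 PU.1 match. PU.1 is the factor that sets up myeloid receptor genes, but its core is common: 28.3% of all windows hold it, and 40.7% hold the C/EBP motif. A match is only a run of letters, and none of these windows was assayed here.

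Csf1 was by far the most abundant member, and Il34 the least. TPM is scaled to transcript length, so levels can be set side by side. Averaged over the 6 libraries, Csf1 stood at 453.1 TPM, Csf1r at 97.7, Csf3 at 48.5, Csf2ra at 44.9, Csf2rb at 21.8, Csf3r at 3.31, Csf2 at 2.70 and Il34 at 1.03 TPM. Csf1 exceeded the next member, Csf1r, 4.64-fold, and every library of the one lay above every library of the other. Only the neighbours Csf3 and Csf2ra, and the neighbours Csf3r and Csf2, overlapped in level across libraries. The mean of Csf1 lay above 97.7% of the genes kept, and that of Il34 above 1.4%.

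**Figure D1:**
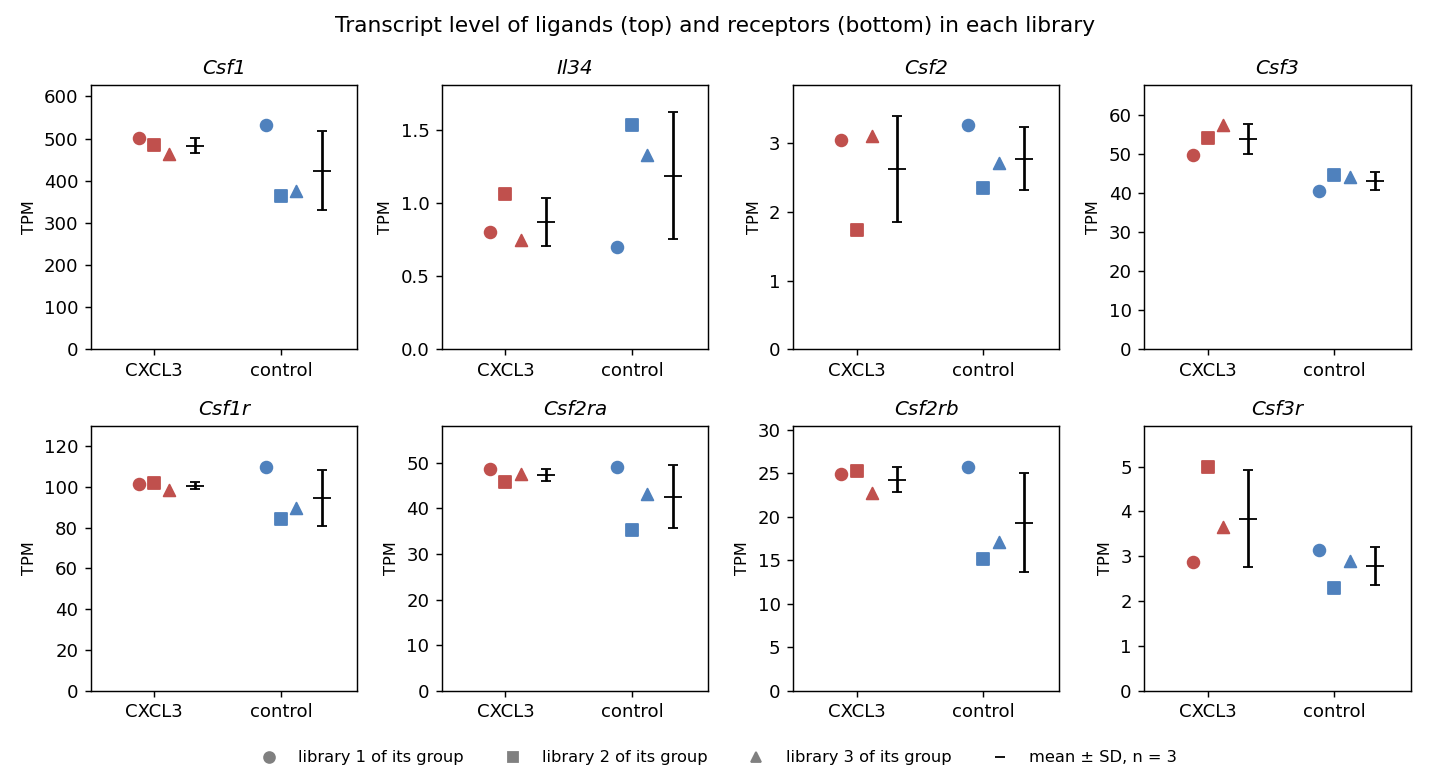
TPM of the 8 genes in each library, ligands in the top row and receptors in the bottom row, CXCL3 libraries left and controls right in each panel; marker shape gives the library number, and the bar gives the mean ± SD of 3 libraries. For Csf3 alone every CXCL3 library lies above every control, and for Csf1, Csf1r, Csf2ra and Csf2rb control 1 lies above the CXCL3 libraries and controls 2 and 3 below them.

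No member passed the test between CXCL3 and control over all genes. By limma, 0 of 8 had an adjusted p under 0.05, where 0.16% of all genes did, and 1 of 8, Csf3, had an unadjusted p under 0.05, as did 1522 of the 13139 genes (11.6%). Of the 8 log2 fold changes 6 were positive, against 62.3% of all genes, and their median was 0.19, against 0.07 for all genes. The fold changes are on the log2(TPM + 1) scale, which understates those of Csf2, Csf3r and Il34.

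Csf3 (ENSMUSG00000038067, chr11:98701263-98703629, plus strand, GRCm38 as for all positions here), the ligand for neutrophil production, had the smallest p of the set. It was at 49.9, 54.3 and 57.5 TPM in CXCL3 1, 2 and 3, against 40.6, 44.7 and 44.3 TPM in controls 1, 2 and 3. Every CXCL3 library lay above every control, a separation in this direction that 7.92% of all genes showed. Csf3 averaged 53.9 ± 3.78 TPM with CXCL3 and 43.2 ± 2.26 TPM in controls (SD, n = 3 each), or 1.25-fold. On the log2 scale the difference was 0.31 ± 0.09 (SE; limma, adjusted p = 0.282), with a 95% interval of 0.11 to 0.51. Over 20 alternative settings it stayed positive, from 0.23 to 0.45, with an adjusted p of 0.0346 to 0.765, and it passed only without control 1. Csf3 lay lowest in control 1, where Csf1, Csf1r, Csf2ra and Csf2rb lay highest. After a loess correction of each library for transcript length and GC it was 0.45 (adjusted p = 0.143), and without controls 2 and 3 it was 0.40 (adjusted p = 0.158).

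Csf1 (ENSMUSG00000014599, chr3:107741048-107760469, minus strand) encodes the main macrophage growth factor. It was at 500.3, 483.6 and 464.3 TPM in CXCL3 1, 2 and 3, against 531.4, 363.5 and 375.2 TPM in controls 1, 2 and 3. Control 1 had the highest level of all, and controls 2 and 3 the lowest, so the groups overlapped. The mean was 482.7 ± 18.0 TPM with CXCL3 and 423.4 ± 93.8 TPM in controls (SD, n = 3 each). The log2 fold change was 0.21 ± 0.14 (SE; limma, adjusted p = 0.506), with an interval of -0.12 to 0.54, which spans 0.922-fold to 1.45-fold. It was 0.38 and passed without control 1 (adjusted p = 0.00555), passed with library weights (0.33, adjusted p = 0.046), and turned to -0.14 without controls 2 and 3 (adjusted p = 0.285).

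Il34 (ENSMUSG00000031750, chr8:110741829-110805924, minus strand) encodes the other ligand of CSF1R, known for its role in skin and brain. It was at 0.80, 1.06 and 0.75 TPM in CXCL3 1, 2 and 3, against 0.70, 1.53 and 1.33 TPM in controls 1, 2 and 3. Controls 2 and 3 were the highest and control 1 the lowest, the reverse of the Csf1 order. The Il34 log2 fold change was -0.21 ± 0.19 (SE; limma, adjusted p = 0.606), with an interval of -0.66 to 0.24. It turned to 0.13 without controls 2 and 3.

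Csf2 (ENSMUSG00000018916, chr11:54247271-54249667, minus strand) encodes a factor that activates macrophages and granulocytes. It was at 3.04, 1.74 and 3.10 TPM in CXCL3 1, 2 and 3, against 3.26, 2.35 and 2.71 TPM in controls 1, 2 and 3. CXCL3 2 was the lowest library, and the other CXCL3 libraries lay within the range of the controls. For Csf2 the log2 fold change was -0.07 ± 0.20 (SE; limma, adjusted p = 0.863), with an interval of -0.55 to 0.40. Without CXCL3 2 it was 0.12 (adjusted p = 0.847), and without control 1 it was 0.02 (adjusted p = 0.958). Of the summed TPM of the 4 ligand genes, Csf1 made up 88.3% to 90.3% in CXCL3 libraries and 88.2% to 92.3% in controls. Csf3 made up 9.01% to 10.9% in CXCL3 libraries and 7.05% to 10.8% in controls, and Csf2 and Il34 together the small remainder.

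Csf1r, the receptor of CSF1 and IL-34 and itself a macrophage marker, was at 101.6, 101.9 and 98.5 TPM in CXCL3 1, 2 and 3, against 110.1, 84.3 and 89.6 TPM in controls 1, 2 and 3. The CXCL3 libraries were nearly equal and lay between control 1 and the other controls. The mean was 100.7 ± 1.86 TPM with CXCL3 and 94.7 ± 13.6 TPM in controls (SD, n = 3 each). For Csf1r the log2 fold change was 0.10 ± 0.10 (SE; limma, adjusted p = 0.649), with an interval of 0.904-fold to 1.27-fold. It was 0.21 and passed without control 1 (adjusted p = 0.0288), and was -0.13 without controls 2 and 3 (adjusted p = 0.322). The gene (ENSMUSG00000024621, chr18:61100598-61132149, plus strand) overlaps Hmgxb3 on the opposite strand, which averaged 11.5 TPM. Whether counting used strand is not given, so the split of reads between them is uncertain.

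Csf2ra (ENSMUSG00000059326, chr19:61223957-61228429, minus strand) encodes the alpha chain that binds GM-CSF. It was at 48.6, 45.8 and 47.5 TPM in CXCL3 1, 2 and 3, against 49.2, 35.3 and 43.2 TPM in controls 1, 2 and 3. Again control 1 was the highest library, and controls 2 and 3 lay below all CXCL3 libraries. Its log2 fold change was 0.16 ± 0.12 (SE; limma, adjusted p = 0.541), with an interval of -0.12 to 0.45, and it turned to -0.06 without controls 2 and 3.

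Csf2rb (ENSMUSG00000071713, chr15:78325752-78353847, plus strand) encodes the beta chain shared by the receptors for GM-CSF, IL-3 and IL-5. It was at 24.9, 25.3 and 22.7 TPM in CXCL3 1, 2 and 3, against 25.8, 15.1 and 17.1 TPM in controls 1, 2 and 3. The mean was 24.3 ± 1.40 TPM with CXCL3 and 19.3 ± 5.67 TPM in controls (SD, n = 3 each), and the groups overlapped through control 1. The log2 fold change was 0.35 ± 0.19 (SE; limma, adjusted p = 0.470), with an interval of -0.08 to 0.78. It was 0.57 and passed without control 1 (adjusted p = 0.00721), passed with library weights (0.49, adjusted p = 0.0449), and was -0.08 without controls 2 and 3 (adjusted p = 0.680). Mice carry a close relative, Csf2rb2, a beta chain for IL-3 alone, and 18.4% of the 50-base words of the longest Csf2rb transcript also occur in Csf2rb2 transcripts, so the split of reads between them is uncertain. Csf2rb2 was at 19.6, 18.6 and 19.1 TPM in CXCL3 1, 2 and 3, against 22.7, 15.1 and 21.1 TPM in controls 1, 2 and 3 (log2 fold change -0.02 ± 0.15 SE; limma, adjusted p = 0.952).

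Csf3r (ENSMUSG00000028859, chr4:126024550-126044440, plus strand) encodes the receptor of G-CSF. It was low, at 2.87, 5.0 and 3.64 TPM in CXCL3 1, 2 and 3, against 3.13, 2.30 and 2.90 TPM in controls 1, 2 and 3. CXCL3 2, the library lowest for Csf2, was the highest here, and CXCL3 1 lay within the range of the controls. The log2 fold change was 0.34 ± 0.20 (SE; limma, adjusted p = 0.479), with an interval of 0.920-fold to 1.74-fold. It stayed positive in 19 alternative settings, from 0.17 to 0.49, without passing in any. Of the 50-base words of the longest Csf3r transcript, 11.2% also occur in other annotated genes.

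The other chains that pair with the beta chains were examined with them. Il3ra, the alpha chain of the IL-3 receptor, was at 22.4, 24.4 and 22.9 TPM in CXCL3 1, 2 and 3, against 25.8, 33.4 and 29.9 TPM in controls 1, 2 and 3. All CXCL3 libraries lay below all controls, which 9.31% of all genes showed, and the log2 fold change was -0.33 ± 0.11 (SE; limma, adjusted p = 0.360). Il3 and Il5ra were listed at 0 in every library and Il5 was at 0.26 TPM at most, so that of the ligands of the shared beta chain only Csf2 reached 1 TPM.

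**Figure D2:**
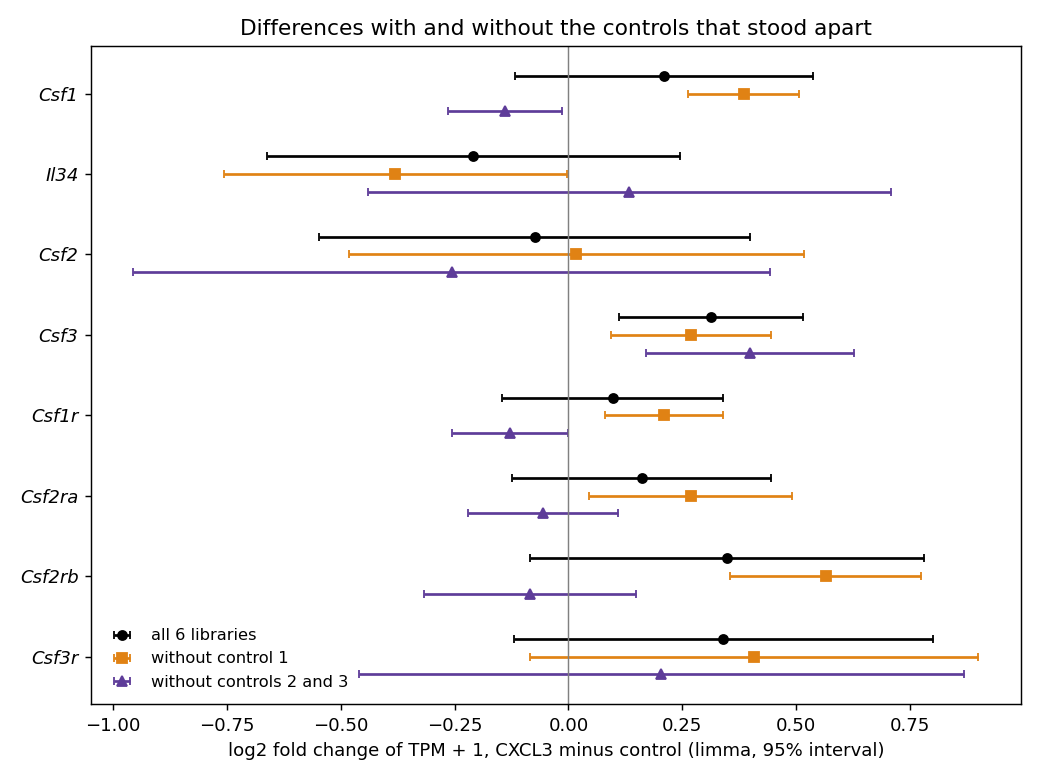
Log2 fold change of TPM + 1, CXCL3 minus control, with its 95% limma interval for each gene, from all 6 libraries, without control 1, and without controls 2 and 3. Csf1, Csf1r, Csf2ra and Csf2rb lie right of 0 without control 1 and left of 0 without controls 2 and 3. Csf3 keeps its side, at 0.27 and 0.40, and so does Csf3r, at 0.41 and 0.20.

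Another 4 members shared 1 pattern across libraries. Csf1, Csf1r, Csf2ra and Csf2rb each had control 1 above all CXCL3 libraries and controls 2 and 3 below all of them. The same order was found in 2916 of the 13139 genes tested (22.2%), so it is common in this table. Those genes had a median longest transcript of 4608.5 bases, against 3213 bases for all genes kept with a length, and the longest transcripts of the 4 members have 4176 bases (Csf1), 4701 (Csf1r), 2277 (Csf2ra) and 4900 (Csf2rb). Il34, with a longest transcript of 1796 bases, had the reverse order, as did 2.42% of all genes, whose median was 1201 bases. With the trend in transcript length and GC content removed, the log2 fold changes were 0.14 for Csf1, 0.00 for Csf1r (-0.0026 before rounding), 0.21 for Csf2ra and 0.24 for Csf2rb, and none passed (adjusted p = 0.490 to 0.989). Without control 1, 4 of the 8 members passed (Csf1, Csf3, Csf1r and Csf2rb, all positive), where 32.4% of all genes did. With library weights 2 of 8 passed, where 11% of all genes did.

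Genes with the most similar profile over the 6 libraries were listed as a description, with no test, since the libraries differ in the length trend just given. Closest to Csf1 was Opa1 (Pearson r = 0.9998), closest to Csf1r were Plekhn1, Med14 and Slc25a24, and closest to Csf2rb were Copg1, Trp53inp1 and Washc5. Such likeness was widespread, with 28.7%, 26.8% and 28.4% of 9460 coding genes correlated above 0.9 with Csf1, Csf1r and Csf2rb, in this order. For Csf2ra the closest were Tmem41b, Clpx and Klhl26, and the share was 12.1%. Csf3 had few such genes, 42 of 9460 (0.444%), led by the ribosomal protein gene Rps3 (r = 0.987), Zfp938 and Arl6ip6. Among the members, r was 0.979 between Csf1 and Csf1r, 0.981 between Csf1 and Csf2rb, -0.915 between Csf1 and Il34, and 0.199 between Csf1 and Csf3.

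Ligand and receptor levels were then compared within each library. The TPM of Csf1 over that of Csf1r was 4.92, 4.75 and 4.71 in CXCL3 1, 2 and 3, against 4.83, 4.31 and 4.19 in controls 1, 2 and 3. This ratio varied less than either gene did among the controls, and control 1 lay inside the range of the CXCL3 libraries. On the log2(TPM + 1) scale the difference of the Csf1 to Csf1r ratio, CXCL3 minus control, was 0.11 (exact two-sided permutation test, p = 0.3; adjusted over 9 quantities, 0.45), and 0.18 without control 1 or 0.0717 without control 3. With 3 libraries against 3 this exact test cannot go below p = 0.1.

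For the other pairs the groups overlapped too. Il34 stood at 0.00787, 0.0104 and 0.00761 of the Csf1r level in CXCL3 1, 2 and 3, against 0.00636, 0.0181 and 0.0148 in controls 1, 2 and 3. Csf2 stood at 0.0380 to 0.0652 of the Csf2ra level in CXCL3 libraries, against 0.0627 to 0.0665 in controls, where the spread was smaller. CXCL3 2 was the lowest library. Csf3 exceeded Csf3r 10.9-fold to 17.4-fold in CXCL3 libraries, against 12.97-fold to 19.4-fold in controls. The differences of the log2 ratios were -0.31 for Il34 to Csf1r, -0.23 for Csf2 to Csf2ra, -0.42 for Csf2 to Csf2rb and -0.03 for Csf3 to Csf3r (exact permutation p = 0.2 to 0.9). Single libraries moved them: Il34 to Csf1r was -0.59 without control 1 and -0.11 without control 2. Without CXCL3 2, Csf2 to Csf2ra was -0.0669, Csf2 to Csf2rb was -0.20 and Csf3 to Csf3r was 0.13. The length and GC correction moved them too: Il34 to Csf1r was then -0.11, Csf2 to Csf2ra -0.0964 and Csf2 to Csf2rb -0.13. Csf3 to Csf3r was 0.13 after that correction.

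**Figure D3:**
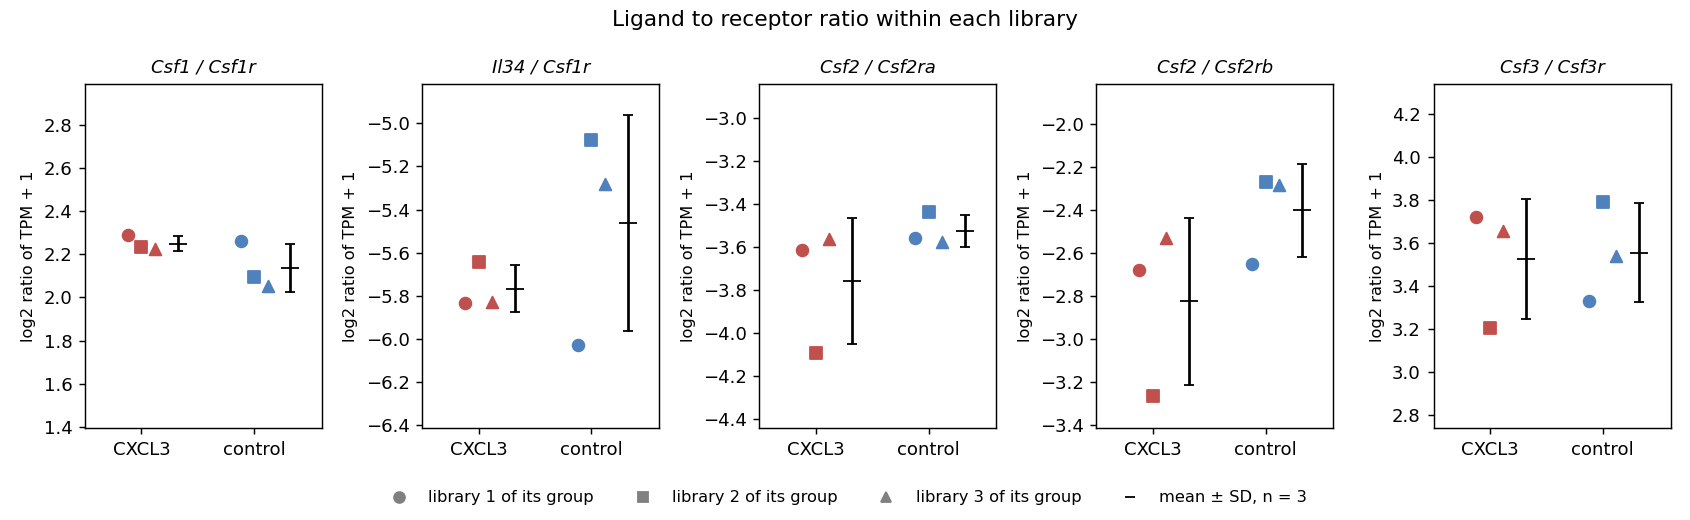
Log2 ratio of ligand to receptor TPM + 1 in each library, CXCL3 left and control right in each panel, with mean ± SD of 3 libraries; every vertical axis spans the same log2 width. The groups overlap in all 5 pairs, with Csf1 to Csf1r at 2.25 ± 0.03 with CXCL3 and 2.14 ± 0.11 in controls.

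The receptor genes were also set against the macrophage markers of the same library. The mean log2(TPM + 1) of the 14 markers kept other than Csf1r was 6.84, 6.85 and 6.83 in CXCL3 1, 2 and 3, against 6.95, 6.89 and 6.90 in controls 1, 2 and 3. All CXCL3 libraries lay below all controls by this mean, with a difference of -0.07 (exact permutation p = 0.1, the lowest this test can give). The most negative log2 fold changes among the 14 were those of C1qa (-0.78), C1qc (-0.45) and C1qb (-0.42). A mean without these genes was not computed, so the difference is not read as a lower share of macrophages. The markers did not act as a block: of the 15 kept, with Csf1r, 7 log2 fold changes were positive and 8 negative, and 1 passed. That was C1qa, a complement subunit made by macrophages, at 167.1 ± 5.46 TPM with CXCL3 and 288.9 ± 38.6 TPM in controls (log2 fold change -0.78; limma, adjusted p = 0.0493). Its partners C1qb and C1qc lay below controls in every CXCL3 library without passing (limma, adjusted p = 0.206 and 0.110). So did Lyz2 (log2 fold change -0.14; limma, adjusted p = 0.493). The mannose receptor gene Mrc1 lay above all controls, at 17.0 ± 1.02 TPM with CXCL3 and 11.5 ± 1.80 TPM in controls (limma, adjusted p = 0.248). Of the 15 kept, 4 lay below all controls and 1 above in every CXCL3 library, where 9.31% and 7.92% of all genes did. Itgam, the integrin chain CD11b, followed the order of Csf1r, at 196.9, 197.4 and 186.1 TPM in CXCL3 1, 2 and 3, against 211.8, 129.4 and 139.9 TPM in controls 1, 2 and 3. C1qa, C1qb, C1qc, Lyz2, Mrc1 and Itgam were singled out from their list after their values were seen. The same holds for Col3a1, Postn, Dcn, Vim, Mmp8 and Camp above and below.

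Relative to that marker mean, Csf3r stood higher in every CXCL3 library, but only just: the lowest of them was at -4.89 and the highest control at -4.90 on the log2 scale. By its own level Csf3r overlapped between groups. The marker mean, which is subtracted, includes C1qa, C1qb and C1qc and was itself lower with CXCL3 (-0.07). The lower mean adds to each receptor's difference. For Csf3r the difference of group means was 0.41, and the other receptors overlapped between groups. The differences were 0.17 for Csf1r, 0.23 for Csf2ra and 0.42 for Csf2rb. They depended on the controls: without control 1 they were 0.26, 0.32 and 0.62 for Csf1r, Csf2ra and Csf2rb, in this order, and without control 2 they were 0.0995, 0.12 and 0.28. Without CXCL3 2 the Csf3r difference was 0.25. No exact permutation p was below 0.1, and the adjusted values over 9 quantities were 0.36 to 0.45. With the length and GC trend removed the difference was 0.0065 for Csf1r and 0.25 for Csf2rb. Of the neutrophil list beside Csf3r, Ly6g and Elane were each at 0 TPM in every CXCL3 library and at 0.08 TPM at most in controls. Other genes of that list were present: Mmp8 was at 97.9 to 99.9 TPM in CXCL3 libraries and 80.2 to 100.8 TPM in controls, and Camp at 2.48 to 3.54 TPM in CXCL3 libraries and 2.74 to 3.83 TPM in controls. The part of neutrophils in the Csf3r level was not tested.

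**Figure D4:**
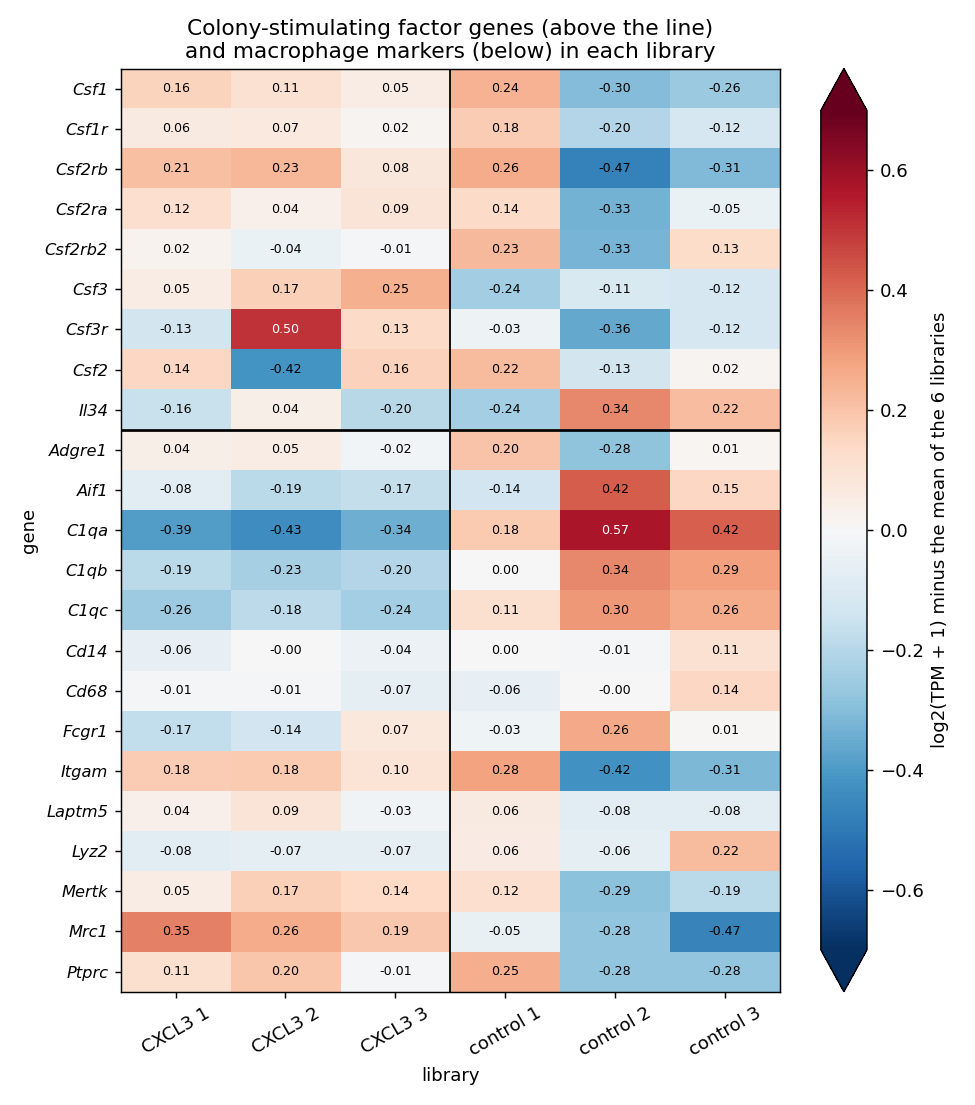
Each cell gives log2(TPM + 1) of a gene in a library minus its mean over the 6 libraries, with CXCL3 libraries left and controls right; colony-stimulating factor genes and Csf2rb2 stand above the line and macrophage markers below it. Csf1, Csf1r and Csf2rb are positive in control 1 and negative in controls 2 and 3, as are Itgam and Ptprc, while C1qa, C1qb and C1qc are negative in all CXCL3 libraries.

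Genes that act upstream and downstream of these ligands and receptors were taken from 7 lists, which held 97 genes, 90 of them kept. By limma 0 of the 90 passed over all genes, and 7 (7.78%) had an unadjusted p under 0.05, against 11.6% of all genes. Their log2 fold changes were positive in 68 (75.6%), against 62.3% of all genes, with a median of 0.14, against 0.07 for all genes. In 4 of the 90 (4.44%) all CXCL3 libraries lay above all controls, against 7.92% of all genes, and in 7 (7.78%) they lay below, against 9.31% of all genes.

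In the list of receptor-proximal signalling, 22 of 22 genes were kept, 19 with positive and 3 with negative fold changes, a median of 0.24 and 0 past the threshold (limma, unadjusted also 0). Gab2, an adaptor of the CSF1 and GM-CSF receptors, was at 16.4 ± 0.78 TPM with CXCL3 and 12.5 ± 4.01 TPM in controls. Jak2, the kinase bound to the beta chain, was at 32.9 ± 1.85 TPM with CXCL3 and 27.6 ± 6.09 TPM in controls. Stat3, which carries the G-CSF signal, was at 94.4 ± 5.27 TPM with CXCL3 and 76.6 ± 20.4 TPM in controls. The adjusted p of these 3 lay between 0.457 and 0.478, and the groups overlapped for each. Controls 2 and 3 lay below all CXCL3 libraries, while control 1 lay above all of them for Jak2 and Stat3 and within their range for Gab2. Tyrobp, the adaptor DAP12 of myeloid cells, was the most abundant at 589.8 ± 21.3 TPM with CXCL3 and 635.5 ± 41.6 TPM in controls. It was the 1 gene of the list whose groups did not overlap (limma, adjusted p = 0.504). It lay below all controls in every CXCL3 library, as 9.31% of all genes did.

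Of 13 negative regulators all were kept, 11 with positive and 2 with negative fold changes, a median of 0.14 and 0 past the threshold. Socs1, an inhibitor of JAK signalling, was at 7.05 ± 0.21 TPM with CXCL3 and 8.78 ± 0.88 TPM in controls. The docking protein genes differed in direction: Dok2 was at 9.69 ± 0.56 TPM with CXCL3 and 7.87 ± 0.85 TPM in controls, and Dok1 at 26.2 ± 0.94 TPM with CXCL3 and 29.0 ± 0.89 TPM in controls. Groups did not overlap for these 3 of 13, 1 above and 2 below controls, where 7.92% and 9.31% of all genes lay above and below, and none passed (limma, adjusted p = 0.437 to 0.489). Socs3, the feedback inhibitor of G-CSF signalling, was the most abundant of the list and showed no such separation, at 75.7 ± 4.93 TPM with CXCL3 and 73.2 ± 9.41 TPM in controls.

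Among 14 transcription factors of myeloid cells 12 were kept, with 8 positive and 4 negative fold changes and a median of 0.11, and 0 passed, with 3 at an unadjusted p under 0.05. Cebpb, a factor of macrophages and of inflamed fibroblasts, had the smallest p of all 90 genes. It was at 248.3, 216.2 and 189.2 TPM in CXCL3 1, 2 and 3, against 137.3, 125.3 and 167.3 TPM in controls 1, 2 and 3 (log2 fold change 0.60 ± 0.13 SE; limma, adjusted p = 0.196). All CXCL3 libraries lay above all controls for Cebpb, and also for Mitf, which 7.92% of all genes showed. Mitf was at 3.75 ± 0.49 TPM with CXCL3 and 2.44 ± 0.46 TPM in controls, and its relative Tfe3 at 54.4 ± 1.83 TPM with CXCL3 and 43.3 ± 7.99 TPM in controls (limma, adjusted p = 0.370 and 0.393). Cebpe and Gfi1, factors of the neutrophil line, stayed under 1 TPM in every library.

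Signals known to induce colony-stimulating factors in stromal cells were represented by 22 genes, all kept, with 15 positive and 7 negative fold changes, a median of 0.10 and 0 past the threshold (2 at an unadjusted p under 0.05). Il1b, which encodes interleukin-1 beta, was at 43.5, 44.9 and 45.5 TPM in CXCL3 1, 2 and 3, against 37.8, 30.4 and 33.8 TPM in controls 1, 2 and 3 (log2 fold change 0.39 ± 0.10 SE; limma, adjusted p = 0.248). Every CXCL3 library lay above every control, which 7.92% of all genes showed. Traf3ip2, the adaptor of IL-17 receptors, was at 18.2 ± 2.79 TPM with CXCL3 and 23.0 ± 0.75 TPM in controls, and Nfkbia, the inhibitor of NF-kappaB, at 221.7 ± 6.33 TPM with CXCL3 and 243.4 ± 10.4 TPM in controls. For both genes every CXCL3 library lay below every control, which 9.31% of all genes showed, and neither passed (limma, adjusted p = 0.378 and 0.452). Il1a was the most abundant of the list, at 447.5 ± 4.46 TPM with CXCL3 and 417.3 ± 46.4 TPM in controls.

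Regulators of the decay of these messages, and signalling genes listed with them, made up a list of 13 genes, all kept. It had 11 positive and 2 negative fold changes, a median of 0.09 and 0 past the threshold (1 at an unadjusted p under 0.05). That was Zfp36, which encodes tristetraprolin, a protein that binds the ATTTA repeats printed above in their RNA form. It was at 58.7, 57.7 and 56.1 TPM in CXCL3 1, 2 and 3, against 65.2, 63.0 and 68.4 TPM in controls 1, 2 and 3 (log2 fold change -0.18 ± 0.07 SE; limma, adjusted p = 0.407). All CXCL3 libraries lay below all controls, as 9.31% of all genes did. Khsrp, another protein that binds AU-rich elements, was at 36.8 ± 1.49 TPM with CXCL3 and 30.9 ± 5.42 TPM in controls. Tnfaip3, 1 of the signalling genes, was at 36.3 ± 0.78 TPM with CXCL3 and 28.5 ± 9.24 TPM in controls. The most abundant of the list, Mapkapk2, was at 102.9 ± 1.71 TPM with CXCL3 and 97.6 ± 11.1 TPM in controls.

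Proteins that release CSF1 from the cell surface or offer IL-34 other partners were represented by 8 genes, 6 of them kept, with 4 positive and 2 negative fold changes, a median of 0.18 and 0 past the threshold (limma, unadjusted also 0). Sdc1, a proteoglycan that can bind IL-34, was the most abundant at 294.2 ± 9.74 TPM with CXCL3 and 301.7 ± 40.1 TPM in controls. Furin, Adam10 and Rhbdf2 had the smallest p (adjusted 0.468 to 0.527), and each had control 1 above and controls 2 and 3 below all CXCL3 libraries. Ptprz1, another IL-34 receptor known from brain, stayed under 1 TPM in every library.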

How the data were processed

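RNA sequencing was made from 3 libraries of CXCL3-treated and 3 of control primary mouse fibroblasts, grouped by the treatment label. Per the labels' protocols, RNA was extracted with TRIzol and treated with DNase. TPM values for 51912 genes came in 1 deposited table, where 0 columns belong to other samples. Per the submitters' processing notes, the authors used fastp, HISAT and RSEM with the build GRCm38.p5. Tool versions, annotation, strand and filters were not given in the sources used here. Column totals ran between 984281 and 986705 TPM and 0 pairs were identical. TPM keeps no depth, so precision rests on the spread between libraries.

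Identifiers were matched to GENCODE M21, which gave 51719 symbols. Genes were kept with at least 1 TPM in at least 3 libraries and compared as log2(TPM + 1) by limma (version 3.58.1, R 4.3.3; eBayes with trend, CXCL3 minus control, two-sided, Benjamini-Hochberg over 13139 genes, threshold 0.05). Ratios were tested by exact permutation over the 20 divisions of the libraries (scipy 1.17.1 for the adjustment). The fit was also run on simulated data with equal spread in both groups and no length trend. These libraries differ in both, so that run does not show how the fit behaves on them. Replicate numbers were not taken to pair the libraries, since the labels do not say whether they do. The members, lists and tests were chosen with earlier results of these data known. Named genes are all members and beta chain relatives, of each pathway list the 3 with the smallest p and the most abundant, and the 3 genes most like each member averaging at least 5 TPM, some of which are not reported here. Alternatives were other pseudocounts, filters and scalings, removal of mitochondrially encoded genes, other eBayes settings, library weights, a replicate block, coding genes alone, removal of length and GC trends (loess), and leaving out libraries.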

Additional observations from a re-analysis of the deposited data

How the results depend on the processing

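Of the 8 members, 0 passed by limma with all libraries, and calls of Csf1, Csf3, Csf1r and Csf2rb appeared only without control 1 or, for Csf1 and Csf2rb, also with library weights. The count of genes called, 21 in the fit reported (4 higher, 17 lower), came to 1446 under library weights, 84 without controls 2 and 3, 10 after the length and GC correction, 5 (0 higher, 5 lower) under median-of-ratios scaling, 1 when eBayes had no trend, and 0 (limma; 1928 at an unadjusted p under 0.05) when no filter was set. Leaving out 1 library gave 0 to 4254 calls, the highest without control 1 and 0 without control 3, CXCL3 1 or CXCL3 2 (limma; 875, 765 and 799 at an unadjusted p under 0.05). With the replicate number as a block it was 12, and no member changed its call. The same-numbered libraries' deviations correlated at 0.122, -0.0112 and 0.0775, and those of different numbers at -0.174 to 0.134. The numbers were not taken to pair the libraries, though these values cannot exclude a pairing.

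Library weights gave log2 fold changes of 0.33 for Csf1 and 0.49 for Csf2rb, both then past the threshold. Leaving out 1 library in turn gave ranges of 0.11 to 0.38 for Csf1, -0.17 to 0.12 for Csf2, 0.27 to 0.37 for Csf3, 0.0195 to 0.21 for Csf1r, 0.04 to 0.27 for Csf2ra, 0.20 to 0.57 for Csf2rb, 0.17 to 0.49 for Csf3r and -0.38 to -0.09 for Il34. Signs turned without controls 2 and 3 for Csf1 (-0.14), Il34 (0.13), Csf1r (-0.13), Csf2ra (-0.0552) and Csf2rb (-0.0845), a fit in which the lone control was assumed to vary like the CXCL3 libraries. With the length and GC trend removed, Csf1r was -0.0026 and Csf2 0.12. The Csf3 to Csf3r ratio, -0.03, turned to 0.11 with a pseudocount of 5 and to 0.13 after the length and GC correction, and ranged from -0.14 to 0.13 with 1 library left out. The other 8 ratios kept their sign in all 9 alternatives run but moved in size. With 1 library left out they ranged from 0.0717 to 0.18 for Csf1 to Csf1r, -0.59 to -0.11 for Il34 to Csf1r, -0.33 to -0.0669 for Csf2 to Csf2ra and -0.57 to -0.20 for Csf2 to Csf2rb. Relative to macrophage markers the ranges were 0.0995 to 0.26 for Csf1r, 0.12 to 0.32 for Csf2ra, 0.28 to 0.62 for Csf2rb and 0.25 to 0.56 for Csf3r. After the length and GC correction, Il34 to Csf1r was -0.11, Csf2 to Csf2ra -0.0964, Csf2 to Csf2rb -0.13 and Csf1 to Csf1r 0.14. The cause of these moves was not tested. A filter of 5 TPM gave no value for Csf2, Csf3r and Il34. Unknown depth limits the genes near 1 TPM most.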
